A study of Homo sapiens with 12 samples.

Results

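U1, U4 and U5 are small nuclear RNAs of the spliceosome, and 12 of the 141 methylation sites listed for 10 RNAs lie in them. The sites were chosen by RNA: every row of U1, U4 or U5 in the snRNA section of the authors' overview was taken, whatever its value. They comprise 3 sites in U1, 4 in U4 and 5 in U5, which the position tables call U5A. At 6 sites the nucleotide is 1 of the first 2 after the cap (cap-proximal sites), and the other 6 are internal. All libraries came from Flp-In T-Rex HEK293 cells, a human embryonic kidney line with a recombination site for transgenes. The 4 groups of 3 libraries were untreated cells (WT), cells with GPATCH4 knocked out (GPATCH4 KO), WT cells given non-target siRNA (siNT) and WT cells given siRNA against DHX15 (siDHX15). The sample titles call the replicates biological. Whether the knockout cells were a single clone, and how much DHX15 was left after siRNA, is not given in the sources used here, and the tables hold neither transcript, so the loss of GPATCH4 and DHX15 was not checked. DHX15 is a DEAH-box RNA helicase that takes part in spliceosome disassembly, and GPATCH4 is a G-patch protein, a class that binds and activates such helicases.

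In splicing, the 5' end of U1 pairs with the 5' splice site of the pre-mRNA, U4 holds U6 in an inactive paired form, and a loop of U5 contacts the exons that are joined. Methyl groups on the ribose 2' oxygen are added to these RNAs by different routes. The cap-proximal nucleotides are methylated by the enzymes CMTR1 and CMTR2 without a guide RNA. Internal sites are methylated by fibrillarin, which box C/D RNAs bring to the site by base pairing. For spliceosomal RNAs these guides are mostly scaRNAs, small RNAs of the Cajal body.

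The U1 and U4 sequences of the position tables are printed 5' to 3' because the scores of these RNAs refer to them, with the listed sites in capitals.
U1: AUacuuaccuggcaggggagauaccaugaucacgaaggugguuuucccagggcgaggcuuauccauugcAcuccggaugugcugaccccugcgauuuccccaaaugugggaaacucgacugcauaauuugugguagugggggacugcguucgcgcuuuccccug
U4: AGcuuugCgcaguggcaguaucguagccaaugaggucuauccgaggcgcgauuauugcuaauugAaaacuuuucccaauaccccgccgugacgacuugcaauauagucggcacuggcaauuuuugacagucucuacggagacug

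The stretches scored around the internal sites of U1 and U4, 6 nucleotides on each side, are repeated with the scored nucleotide in capitals, since each score compares that nucleotide with these neighbours.
U1-Am70: cauugcAcuccgg
U4-Cm8: gcuuugCgcagug
U4-Am65: uaauugAaaacuu

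U1 is 164 nt long in the tables, U4 144 nt and U5A 117 nt. In RefSeq (GRCh38.p14), U1 is encoded by RNU1-1 at chr1:16514122-16514285 and by 3 more genes of the same name series. U4 is encoded by RNU4-1 at chr12:120293093-120293237 and RNU4-2 at chr12:120291759-120291903. The RNAs have more than 1 gene each, 4 for U1, 2 for U4 and 5 for U5. The sequences of these copies were not compared with those scored, and reads of the copies were not told apart here. The overview lists a guide for 5 of the 6 internal sites and a question mark for U5-Gm37. U1-Am70 is listed with SCARNA7 (chr3:160514907-160515236), U4-Cm8 with SCARNA17 (chr18:49814023-49814443) and U4-Am65 with SCARNA5 (chr2:233275726-233276003). U5-Um41 is listed with SCARNA5/6, the second being at chr2:233288676-233288941, and U5-Cm45 with SCARNA10 (chr12:6510222-6510551). U4-Am65 and U5-Um41 therefore share a listed guide. No guide is listed for the 6 cap-proximal sites.

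RiboMeth-seq breaks RNA with alkali, which spares the bond after a nucleotide with a methylated ribose, and reads seldom end there. The score is 1 minus the read ends at the site over a weighted mean of its neighbours (the neighbour mean). It runs from 0, no depletion, to 1, no read end at the site. Summed over the 10 RNAs, 5' plus 3' read ends per library ran from 7437847 to 16314082 in WT and GPATCH4 KO. In siNT and siDHX15 they ran from 875096 to 5111963. The neighbour mean at the 12 sites had a median of 73.9 read ends in WT and GPATCH4 KO and of 13.9 in siNT and siDHX15. U4 was the shallowest of the 3 RNAs, with medians of 22.8 and 4.47 in the same libraries. In siNT 8 of the 12 U4 values had no read end at the site and so a score of 1, against 0 of 12 in WT. With 3.11 neighbour read ends, as at U4-Am1 in siNT replicate 2, a single read end moves the score by 0.321, so the U4 scores of siNT and siDHX15 are coarse. The Poisson intervals and the floors given here cover counting error only, since the reads carry no molecular identifiers. A floor, given for 0 read ends, is the score at which 3 read ends would be expected. Intervals of differences between groups rest on the spread between libraries.

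**Figure D1:**
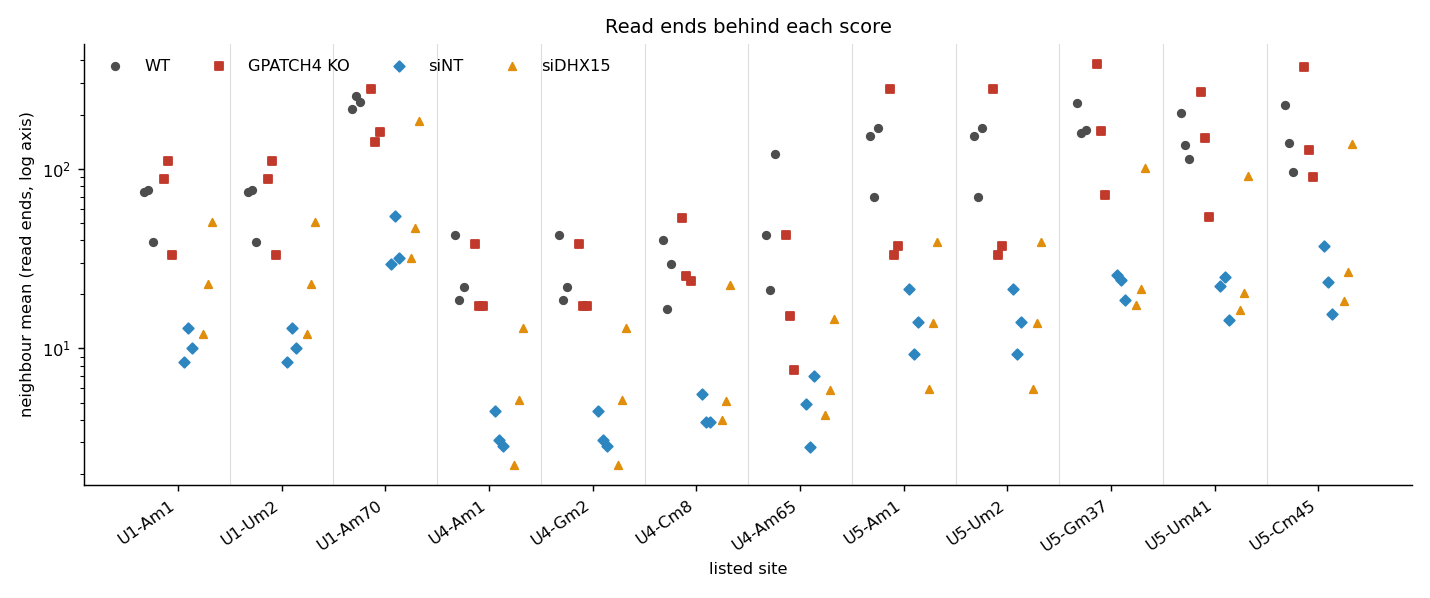
Neighbour mean (read ends, log axis) behind each score, by listed site, with 1 point per library and 3 libraries per group. The siNT and siDHX15 points lie below most WT and GPATCH4 KO points, and the 4 U4 sites reach down to 2.24 read ends.

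The cap-proximal sites scored high in every group. Their 6 group means ran from 0.809 to 0.991 in WT, from 0.793 to 0.992 in GPATCH4 KO, from 0.906 to 1 in siNT and from 0.735 to 0.952 in siDHX15. These scores use read 5' ends alone, because fragments of 20 to 40 nt leave no 3' ends so near the start of the RNA. The first position with a 3' end was 17 in U1 and 19 in both U4 and U5A.

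At U1-Am1, the first nucleotide of U1, the scores were 1, 0.974 and 1 in WT replicates 1 to 3 and 0.974, 0.955 and 0.970 in GPATCH4 KO. They were 0.852, 1 and 1 in siNT and 1, 0.868 and 0.980 in siDHX15. All groups overlapped, and the libraries of a group held 2, 8, 1 and 4 read ends at the site in all, in the same order of groups. At the adjacent U1-Um2 the WT scores were 0.959, 0.961 and 0.949, and the lowest score of the 12 libraries was 0.901, in a siNT and in a siDHX15 library. The 5' terminus of U1, which reads the 5' splice site, thus scored 0.852 or higher at both cap-proximal nucleotides in all 12 libraries.

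At U5-Am1 the WT scores were 0.970, 1 and 0.988 and the GPATCH4 KO scores 0.975, 1 and 1. The siNT scores were 1, 0.892 and 0.929 and the siDHX15 scores 1, 0.783 and 0.974. The lowest value came from 3 read ends against a neighbour mean of 13.8, and the groups overlapped. U5-Um2 was narrow in WT, at 0.928, 0.928 and 0.923, and ranged from 0.832 to 1 over the other 9 libraries.

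The 2 cap-proximal sites of U4 had lower WT means than those of U1 and U5. U4-Am1 scored 0.90, 0.839 and 0.774 in WT and 0.915, 0.883 and 1 in GPATCH4 KO, against 1 in all 3 siNT libraries and 1, 1 and 0.846 in siDHX15. WT lay below siNT without overlap, but the 3 siNT libraries held 0 read ends at the site against a summed neighbour mean of 10.4. The floor was 0.713, and the 95% exact Poisson interval reached down to 0.647. U4-Gm2 scored 0.929, 0.679 and 0.819 in WT, 0.789, 0.708 and 0.883 in GPATCH4 KO, 0.776, 1 and 1 in siNT and 0.554, 0.805 and 0.846 in siDHX15. Here the groups overlapped, and the siDHX15 value of 0.554 rested on 1 read end against a neighbour mean of 2.24. U4-Cm8 lies among the 6 positions used as neighbours of both sites.

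The internal sites spread more widely, with WT means from 0.515 at U4-Cm8 to 0.898 at U5-Gm37. Their median over the 6 sites was 0.787 in WT, 0.767 in GPATCH4 KO, 0.848 in siNT and 0.862 in siDHX15.

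**Figure D2:**
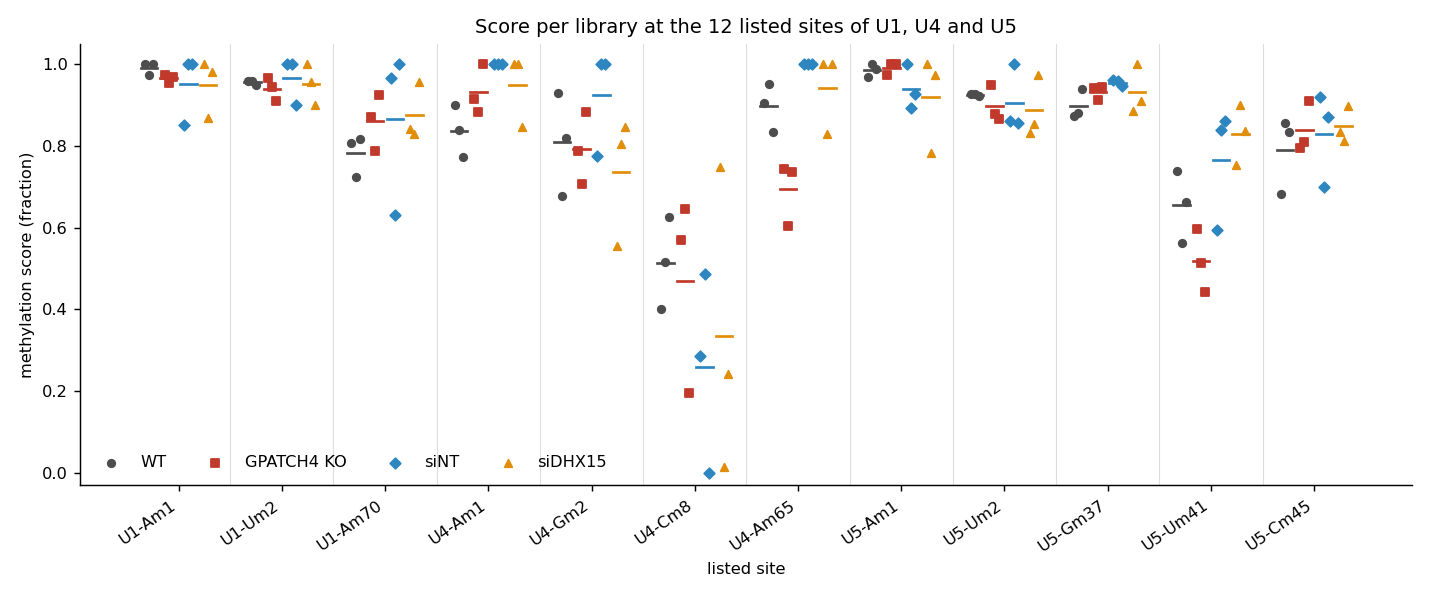
Methylation score (fraction) of each library at the 12 listed sites, with 1 point per library, 3 libraries per group and a short line at each group's mean. At U4-Am65 the 3 GPATCH4 KO points, from 0.604 to 0.743, lie below the 3 WT points, from 0.834 to 0.953, and U4-Cm8 is the lowest site in every group.

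U1-Am70 lies in the loop of the U1 stem-loop that binds a U1-specific protein. It scored 0.808, 0.725 and 0.818 in WT and 0.871, 0.787 and 0.925 in GPATCH4 KO. In siNT it scored 0.966, 0.631 and 1, and in siDHX15 0.842, 0.830 and 0.957. The 4 groups overlapped, and the siNT group had the widest spread of the 4 (SD 0.204, n = 3). In the low siNT library the site held 0 read 5' ends and 20 read 3' ends, so that the 2 kinds of ends gave scores of 1 and 0.474.

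U4-Cm8 lies in the 5' part of U4 that pairs with U6. Its scores were 0.401, 0.517 and 0.625 in WT, 0.569, 0.646 and 0.195 in GPATCH4 KO, 0.287, 0.487 and 0 in siNT, and 0.75, 0.0153 and 0.241 in siDHX15. It was the lowest of the 12 sites in each group, and the 3 siDHX15 libraries alone spanned 0.0153 to 0.75. No read 3' end can be counted there, so only 5' ends stood behind it, and U4-Gm2, 6 nt away, is among its neighbours. Summed over the libraries, 43 read ends in WT against a neighbour sum of 86.0 gave a pooled score of 0.50 with a 95% exact Poisson interval from 0.327 to 0.638. In siNT, 11 read ends against 13.4 gave 0.178, with an interval from 0 to 0.590. The overview lists SCARNA17 for this site, and the siNT and siDHX15 data do not separate its score from 0 at this depth.

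U4-Am65, downstream of the stretches that pair with U6, was lower in GPATCH4 KO than in WT, a call lost under 7 of 21 alternatives. Its scores were 0.906, 0.953 and 0.834 in WT and 0.743, 0.604 and 0.736 in GPATCH4 KO. All 3 knockout libraries were below all 3 WT libraries. The means were 0.898 ± 0.0599 (SD, n = 3) and 0.695 ± 0.0782 (SD, n = 3). The score fell by 0.203 (SE 0.0531, 95% interval -0.322 to -0.0840, limma adjusted p = 0.0159 over 141 sites). Over all sites of the series, 24.8% were called lower in this comparison and 25.5% were called in either direction, shares that 1 of 12 does not reach.

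The counts behind U4-Am65 were small. WT replicates 1 to 3 had 4, 1 and 20 read ends at the site, against neighbour means of 42.6, 21.1 and 120. GPATCH4 KO replicates 1 to 3 had 11, 6 and 2, against 42.8, 15.2 and 7.59. Of the 20 read ends of WT replicate 3, all were 3' ends. Pooled over libraries the score was 0.864 in WT (95% exact Poisson interval 0.80 to 0.912, for the counts at the site alone) and 0.710 in GPATCH4 KO (0.547 to 0.825), and these intervals overlap slightly. The edgeR quasi-likelihood test on the read ends, with the neighbour mean as offset, did not call the site (adjusted p = 0.152). Read 5' ends alone gave an adjusted p of 0.107, and a fit blocked by library index gave 0.0752. Leaving out WT replicate 1, WT replicate 2 or GPATCH4 KO replicate 2 also ended the call, with adjusted p-values of 0.0514, 0.0710 and 0.0572. The score was lower in the knockout under all 21 alternatives. Some of these, such as leaving out a siNT or siDHX15 library, keep the difference at -0.203 and can only alter its p-value.

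**Figure D3:**
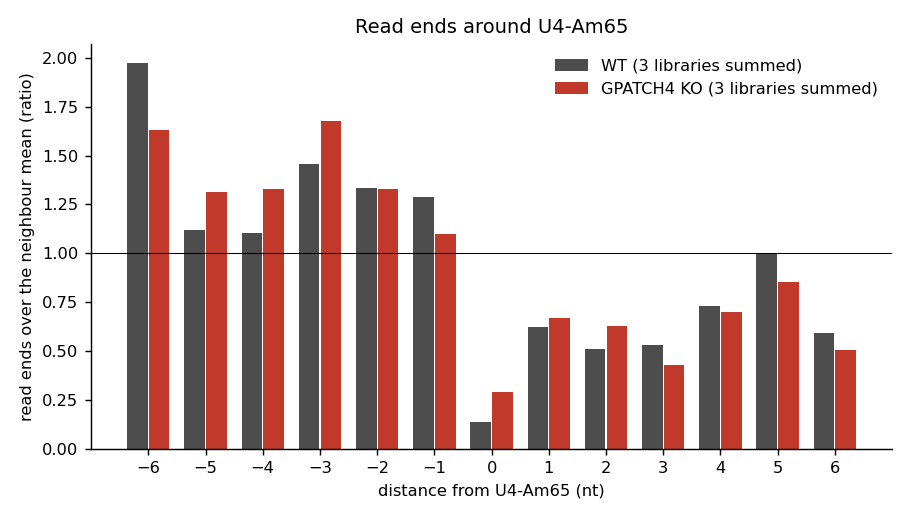
Read ends at each position from 6 nt before to 6 nt after U4-Am65, summed over the 3 WT and the 3 GPATCH4 KO libraries and divided by the summed neighbour mean (ratio, horizontal line at 1). The dip at distance 0 rests on 25 read ends in WT and 19 in GPATCH4 KO, and in both groups the positions before the site hold more ends than those after it.

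In siNT all 3 libraries had 0 read ends at U4-Am65 and a score of 1. With a summed neighbour mean of 14.7 the floor was 0.796, and the 95% exact Poisson interval reached down to 0.749. The siDHX15 scores were 1, 0.829 and 1. They overlapped those of siNT and WT, and the difference of -0.0569 between siDHX15 and siNT did not pass the test (limma adjusted p = 0.486).

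The 3 internal sites of U5 lie in the loop that contacts the exons, 4 nt apart, so each has at least 1 other listed site among its neighbours. U5-Gm37, for which the overview gives no guide, was the highest of the 3 in every group. It scored 0.875, 0.880 and 0.939 in WT, 0.942, 0.914 and 0.944 in GPATCH4 KO, 0.961, 0.958 and 0.946 in siNT and 0.886, 1 and 0.911 in siDHX15. The siNT libraries lay above the WT and the GPATCH4 KO libraries without overlap. Neither siNT minus WT nor GPATCH4 KO minus WT passed the limma test at this site (adjusted p = 0.730 and 0.509).

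U5-Um41 was the lowest of the 3 in every group. It has 2 listed sites among its neighbours, against 1 for each of the others. Few read ends at such neighbours lower the neighbour mean and so the score, and their part in this rank was not tested. It scored 0.739, 0.562 and 0.663 in WT and 0.597, 0.513 and 0.443 in GPATCH4 KO. The siNT scores were 0.593, 0.840 and 0.861 and the siDHX15 scores 0.755, 0.902 and 0.836. The knockout mean of 0.517 was 0.137 below that of WT (95% interval -0.309 to 0.0343, limma adjusted p = 0.250), and their values overlapped. The mean of siDHX15 was 0.0661 above that of siNT (95% interval -0.105 to 0.238, limma adjusted p = 0.597). The knockout differences of U5-Um41 and U4-Am65 were the 2 lowest among the 12 sites, and only the second passed the test. With the library index as a block the difference at U5-Um41 turned to 0.0431. The overview lists SCARNA5/6 for U5-Um41 and SCARNA5 for U4-Am65, and a link to the guide was not tested.

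U5-Cm45 scored 0.683, 0.857 and 0.834 in WT, 0.796, 0.811 and 0.911 in GPATCH4 KO, 0.919, 0.701 and 0.871 in siNT and 0.836, 0.812 and 0.898 in siDHX15. The groups overlapped throughout. In WT replicate 1 the site held 17 read 5' ends and 55 read 3' ends. The authors' deposited table gives a WT mean of 0.852 at this site, while the 3 deposited scores average 0.791. It was the only 1 of the 48 group means in the authors' deposited table for these sites that did not equal the mean of the scores used here.

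Ranked by group mean, the order of the 4 groups differed from site to site. Of the 36 pairs of groups that follow each other in these orders, 34 overlapped and 2 did not, where 24.6% of such pairs did not overlap over all 141 sites. The 2 were WT above GPATCH4 KO at U4-Am65 and siNT above GPATCH4 KO at U5-Gm37. Groups further apart in the order also failed to overlap at some sites, as siNT and WT did at U4-Am1, U4-Am65 and U5-Gm37.

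The question of whether knockout of GPATCH4 or siRNA against DHX15 altered the methylation of these RNAs was tested over all 141 sites at once with limma. In GPATCH4 KO minus WT, 1 of the 12 sites was lower (U4-Am65) and 0 were higher, and edgeR on the read ends called 0. The other 11 differences lay between -0.137 at U5-Um41 and 0.0953 at U4-Am1. The median of the 12 differences was -0.0156, beside -0.00607 over all 141 sites.

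In siDHX15 minus siNT, limma called 0 of the 12 sites, where 31.2% of all 141 sites were called, each of them lower. At an unadjusted p under 0.05 the count was also 0, and edgeR on the read ends called 0 of 12 against 48 of 141. The 12 differences had a median of -0.0166, beside -0.0569 over all sites, and ran from -0.190 at U4-Gm2 to 0.0775 at U4-Cm8. The 6 cap-proximal differences were negative, as were 118 of 141 over all sites, with 5 of the 6 between -0.0512 and -0.00127. With each library centred on its own scores these 5 turned positive, U1-Am1 for example to 0.0679. Centring adds the same amount to all 141 differences of this comparison, so the turn shows only that these 5 were smaller than that amount. At U4-Gm2, where the siDHX15 mean of 0.735 stood against 0.925 in siNT, the limma adjusted p was 0.165. Same-numbered libraries of these 2 groups deviated together only weakly (r = 0.117, 0.160 and 0.166 across sites). They count as paired here, but the main fit did not pair them. With a replicate block U4-Gm2 passed (difference -0.190, limma adjusted p = 0.0201). The value rested on 4 read ends in siDHX15 and 1 in siNT.

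The 95% intervals of the limma fit use a spread common to the 4 groups, so they do not reflect the lower depth of siNT and siDHX15. For siDHX15 minus siNT they reached from -0.0868 to 0.0578 at U1-Um2 and from -0.0885 to 0.0424 at U5-Gm37. At U4-Cm8 the interval ran from -0.359 to 0.514 and was wider than the WT score of that site, 0.515.

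In siNT minus WT, 0 of 141 sites were called (0%) by limma and 0 by edgeR, with 10 of 141 and 1 of these 12 at an unadjusted p under 0.05. That site was U4-Am1, 0.162 higher in siNT (adjusted p = 0.249) with the 0 read ends given above. The lowest difference was -0.257 at U4-Cm8 (adjusted p = 0.778). The test of whether the siDHX15 effect differed from the knockout effect called 37.6% of all sites and 0 of the 12. At an unadjusted p under 0.05 the count was 0 of 12, and edgeR also called 0. For U4-Am65 the difference of the effects was 0.146 (adjusted p = 0.169) and for U5-Um41 it was 0.203 (adjusted p = 0.178). Without siDHX15 replicate 2, U4-Am65 (0.203, adjusted p = 0.0305) and U5-Gm37 (-0.0923, adjusted p = 0.0420) passed. At U4-Am65 every siNT and siDHX15 library then left had 0 read ends and a score of 1. The value of 0.203 was therefore only that of GPATCH4 KO minus WT with its sign turned.

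U2 and U6, the other spliceosomal RNAs of the tables, hold 10 and 8 listed sites. In siDHX15 minus siNT limma called 3 of 10 U2 sites and 1 of 8 U6 sites lower, with median differences of -0.0554 and -0.0721. In GPATCH4 KO minus WT it called 1 of 10 U2 sites lower and 0 of 8 U6 sites. These counts stand beside 0 and 1 of 12 in U1, U4 and U5, and the difference between the lists was not tested.

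Among the 129 listed sites of the other RNAs, the scores that followed the internal sites of each RNA most closely over the 12 libraries were as follows. For U1-Am70 they were 28S-Cm4054 (Pearson r = 0.688) and 28S-Am1326 (0.641). For the mean of the 2 internal U4 sites they were U6-Am47 (0.751) and 18S-Am468 (0.637), and for that of the 3 U5 sites 18S-Um116 (0.665) and 5.8S-Gm75 (0.605). The libraries share their groups and their depth, so these are descriptions with no test. U6-Am47 is in the RNA that U4 pairs with.

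Positions not listed were searched by the same score. A score of at least 0.75 in all 12 libraries, with a neighbour mean of at least 10 in each, was found at 0 of 151 such U1 positions and 0 of 53 U5A positions. In U4, 0 of the 140 unlisted positions had that depth in every library. The highest mean over the 12 libraries at an unlisted U1 position was 0.562, at position 23, where single libraries ran from 0.186 to 0.790.

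Of each library's read ends over the 10 RNAs, the share that fell in an RNA was compared as a measure of its level. Most of these read ends were those of 18S and 28S rRNA, and reads of other RNAs do not enter the total. The share of U1 rose 1.76-fold after siRNA against DHX15. U4 and U5A had higher means there without passing the test, and in GPATCH4 KO none of the 3 passed it. Scaled to counts per 1000000 of these read ends (CPM), U1 held 3976, 4355 and 4403 CPM in siNT and 7441, 7178 and 7744 CPM in siDHX15. All siDHX15 libraries stood well above all siNT libraries. The means were 4245 ± 234 and 7455 ± 283 (SD, n = 3), a difference of 0.81 on the log2 scale (edgeR quasi-likelihood adjusted p = 0.000138 over 10 RNAs). WT, at 4067, 4062 and 4604, and GPATCH4 KO, at 4597, 3676 and 4048, lay below all siDHX15 libraries and overlapped siNT. In bulk RNA a higher share of 1 RNA and a lower amount of the others cannot be told apart, nor can a change per cell and a change in the mix of cells.

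For U4 the values in CPM were 463.6, 307.4 and 490.2 in siNT and 701.6, 622.3 and 652.2 in siDHX15. The groups did not overlap, and the siDHX15 mean of 658.7 ± 40.1 stood against 420.4 ± 98.7 (SD, n = 3). The log2 difference of 0.65 did not pass the test (edgeR adjusted p = 0.0712). WT held 384.2, 337.8 and 748.6, and the last of these was the highest U4 share of all 12 libraries. Without WT replicate 3, which enters through the common spread, U4 passed (edgeR adjusted p = 0.0110), as it did in a fit of siNT and siDHX15 alone (0.0314). GPATCH4 KO held 422.8, 366.2 and 328.5, a log2 difference of -0.40 from WT (edgeR adjusted p = 0.366) that turned to 0.05 without WT replicate 3.

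For U5A the values in CPM were 1641, 876.3 and 721.3 in siNT and 1406, 1305 and 1674 in siDHX15. The groups overlapped because siNT replicate 1 was about as high as the siDHX15 libraries. The log2 difference was 0.44 (edgeR adjusted p = 0.232), and without siNT replicate 1 it was 0.87 (adjusted p = 0.0266). WT held 938.0, 1169 and 677.8, and GPATCH4 KO 1640, 1041 and 875.4, with overlap and a log2 difference of 0.35 (edgeR adjusted p = 0.431).

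**Figure D4:**
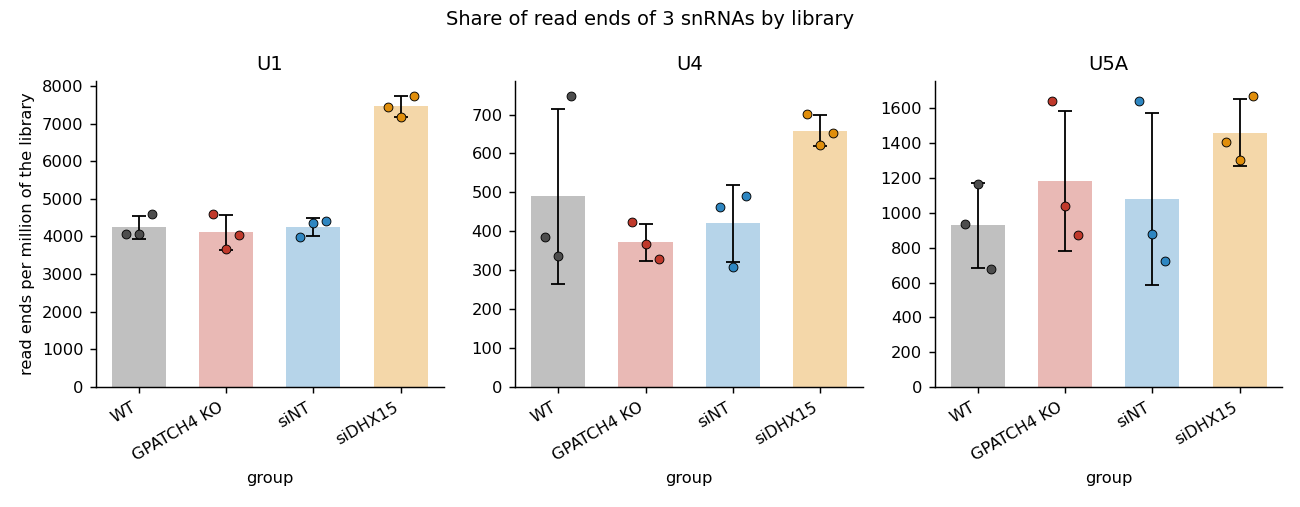
Read ends per 1000000 of the library's read ends over the 10 RNAs (CPM) for U1, U4 and U5A. Each library has 1 point, bars from 0 stand at the mean of 3 libraries, and error bars are 1 SD. The 3 siDHX15 libraries of U1, between 7178 and 7744, lie above the other 9, between 3676 and 4604.

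Over the 10 RNAs, 30% were called in siDHX15 minus siNT (U1, U3A and U8, all higher). All 7 RNAs other than the rRNAs had a positive log2 difference, U2 the smallest of them at 0.22. Among the rRNAs it was 0.064 for 18S, -0.046 for 28S and -0.205 for 5.8S, which at 154 nt is shorter than U1. Scaling with TMM factors moved the median of the 10 RNAs by -0.25 in this comparison, and U1 then differed by 0.56 (adjusted p = 0.0106). In GPATCH4 KO minus WT 0% of the 10 RNAs were called by edgeR, with 2 at an unadjusted p under 0.05, neither of which was U1, U4 or U5A. In siNT minus WT 10% were called, the 5.8S rRNA alone. Among the 9 other RNAs, U3A had the share most like that of U1 over the 12 libraries (Pearson r of log2 shares 0.827), U1 that most like U4 (0.738), and 18S that most like U5A (0.605), as descriptions with no test.

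Per nucleotide of length, U1 had 25.9 ± 1.90 CPM in WT, U5A 7.93 ± 2.10 and U4 3.40 ± 1.56 (SD, n = 3). This order, U1 above U5A above U4, held in every group of means, and in siDHX15 the levels were 45.5, 12.5 and 4.57. A read-end level depends on fragment yield and mapping as well as on the amount of RNA, so these levels are not molar ratios.

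The siDHX15 effect on the share differed from the knockout effect for U1 (0.86 on the log2 scale, edgeR adjusted p = 0.00175) and U4 (1.04, adjusted p = 0.0389), where 60% of the 10 RNAs were called. The value of U4 was 0.60 without WT replicate 3 (adjusted p = 0.0759), and its call held under 8 of 18 alternatives. For U5A the difference of the effects was 0.08 (adjusted p = 0.859).

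The file headers name a library index, and each of the 6 indices was used for 1 library of WT or GPATCH4 KO and 1 of siNT or siDHX15. The 3 siDHX15 libraries held 1.76, 2.02 and 1.91 times the U1 share of the library with the same index, while the 3 siNT libraries held 0.865, 1.07 and 0.956 times that of theirs. For U4 these ratios were 1.62, 1.92 and 1.99 for siDHX15 and 1.10, 0.910 and 0.655 for siNT. For U5A they were 1.39, 1.35 and 1.91 against 1.00, 0.75 and 1.06. For all 3 RNAs the siDHX15 ratios lay above the siNT ratios. In the order given, the siDHX15 partners were WT replicate 1 and GPATCH4 KO replicates 2 and 3. The siNT partners were GPATCH4 KO replicate 1 and WT replicates 2 and 3, the last with the highest U4 share. The ratios therefore also hold differences between WT and GPATCH4 KO. Whether libraries of the same index share more than the barcode is not given in the sources used here. With the index as a block, an alternative chosen after seeing the data, siDHX15 minus siNT was 0.99 for U1 (edgeR adjusted p = 4.16e-05), 0.95 for U4 (adjusted p = 0.000195) and 0.66 for U5A (adjusted p = 0.00514). The last 2 did not pass in the main fit, and the block leaves 3 residual degrees of freedom. No index holds libraries of both siNT and siDHX15, so this fit sets them against each other through WT and GPATCH4 KO.

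The rise of U1 was not limited to 1 stretch of the RNA. In windows of 20 nt with at least 500 read ends over all libraries, counted separately for 5' and 3' ends, siDHX15 was higher than siNT in all 15 windows of U1, by 1.23-fold to 2.33-fold with a median of 1.91. In 12 of them all siDHX15 libraries stood above all siNT libraries. The 5' ends from position 101 to 120 held 430, 436 and 620 CPM in siNT and 930, 821 and 1148 in siDHX15. By contrast the 5' ends from 21 to 40 overlapped, at 186, 575 and 281 in siNT and 521, 439 and 360 in siDHX15. In U4 the ratio ran from 1.14 to 2.52 over 13 windows, 9 of them without overlap, and in U5A from 1.02 to 2.21 over 9 windows, 3 of them without overlap. In U4 the 5' ends from 21 to 40 were 197 CPM in WT replicate 3 against 34.5 and 31.1 in the other WT libraries, and the 3' ends from 41 to 60 were 163 against 41.7 and 34.9.

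**Figure D5:**
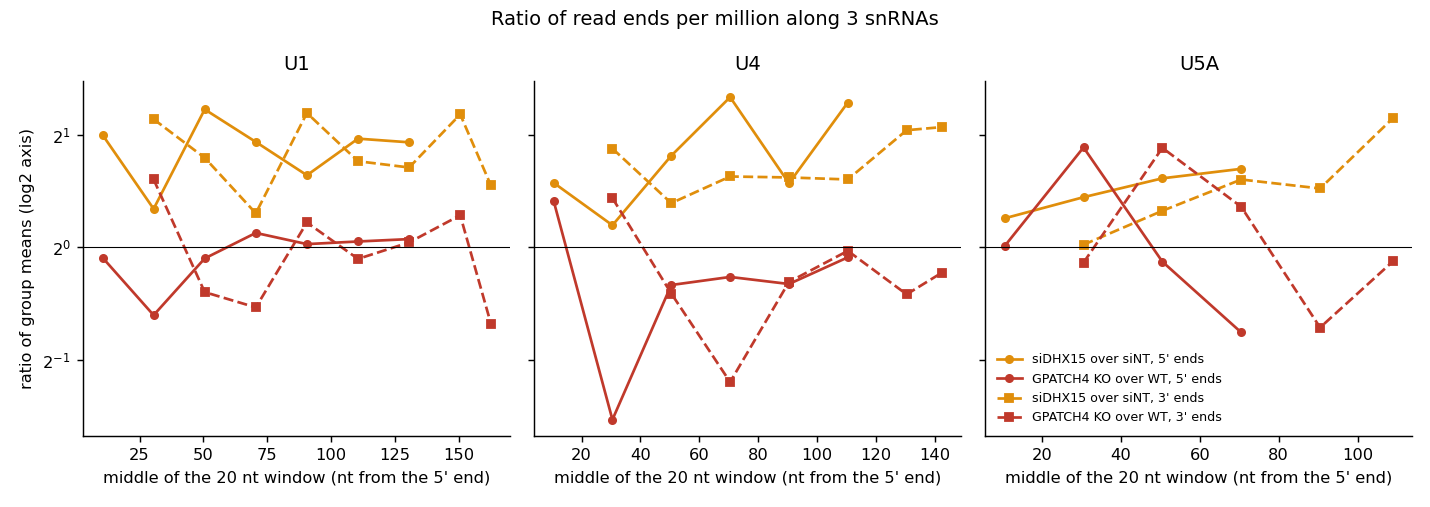
Ratio of the group means of CPM in windows of 20 nt along U1, U4 and U5A (log2 axis, horizontal line at 1), for siDHX15 over siNT and GPATCH4 KO over WT and for read 5' and 3' ends separately. The siDHX15 ratios of U1 lie between 1.23 and 2.33, all above 1, while those of GPATCH4 KO lie on both sides of 1.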

How the data were processed

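Per the labels' protocols, RNA was partly hydrolysed and fragments of 20 to 40 nt, gel-purified, received linkers before Ion Proton sequencing. Build hg38, Bowtie2 2.3.4.1 and cutadapt 2.0 are in the submitters' processing notes, with no role stated. Per the file headers, the deposited tables hold whole-number counts of read 5' and 3' ends per position and library, and the authors' score, a fraction. Columns of per-sample values matched to no sample numbered 0. The score from both kinds of ends was used at internal sites, where 72 of 72 values were recomputed from the counts with 6 neighbours a side. At positions 1 and 2 the deposited recalculated score was used, of which 66 of 72 equalled a score from read 5' ends against positions 3 to 8, with a largest difference of 0.0291. 

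Scores of all 141 sites were fitted with limma 3.58.1 (R 4.3.3) with 4 group means, two-sided, Benjamini-Hochberg adjusted at 0.05. Read ends per RNA were tested with edgeR 4.0.16 (quasi-likelihood, total over the 10 RNAs as library size), and the difference of effects on shares was added after seeing the data. The scripts were tested on simulated data. All listed sites of U1, U4 and U5 were named. U2 and U6 entered as lists, the most alike sites and RNAs by Pearson r, and unlisted positions by score and depth. The members, lists and tests were chosen with earlier results of these data known. Same-numbered siNT and siDHX15 libraries deviated together weakly in their scores (r = 0.117, 0.160 and 0.166 across sites). This counts as paired here, but the main fit had no block. Those of WT and GPATCH4 KO did not in all replicates (0.120, 0.0459 and -0.000863), nor did shares in either experiment. Alternatives were other samples, blocks, kinds of ends, neighbours, centring, filters and tests. Gene positions are those of RefSeq (GRCh38.p14). The U5 sequence is not reported here.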

Additional observations from a re-analysis of the deposited data

Results flagged for a closer look

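The siDHX15 effect on the share of read ends differed from the GPATCH4 knockout effect for U1, by 0.86 on the log2 scale (edgeR adjusted p = 0.00175). It stayed past the threshold under 17 of 18 alternatives and was lost with TMM factors (0.53, adjusted p = 0.0628). The same difference for U4 was 1.04 (adjusted p = 0.0389). It kept its direction under all 18 alternatives, with values from 0.60 to 1.34, and stayed past the threshold under 8 of them. Without WT replicate 3, which had the highest U4 share, it was 0.60 (adjusted p = 0.0759).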

How the results depend on the processing

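U1 in siDHX15 minus siNT stayed past the threshold under all 19 alternatives, with log2 values from 0.56 to 0.99. For GPATCH4 KO minus WT the number of the 12 sites called fell from 1 to 0 with a replicate block, read 5' ends alone, edgeR on read ends, or a neighbour mean of at least 20 (which leaves U1-Am70 alone), and it lay between 0 and 1 when 1 library was left out. With the library index as a block the count stayed at 1 but was U5-Am1 (-0.142, adjusted p = 0.0321) in place of U4-Am65. The main difference at U5-Am1 was 0.00558. No index holds libraries of both WT and GPATCH4 KO, so the blocked fit compares them through siNT and siDHX15, with 3 residual degrees of freedom. With a replicate block siDHX15 minus siNT called 1 site. The 2 effects differed at between 0 and 2 sites when 1 library was left out. Of the 3 RNAs, siDHX15 minus siNT called 2 in a fit of its 2 groups, 3 with the library index as a block and between 1 and 2 without 1 library. The difference of effects on shares called 0 with TMM, 1 with limma, 1 with a replicate block and between 1 and 2 without 1 library. The replicate block changed no other count, and replicate numbers of WT and GPATCH4 KO did not pair the libraries. The replicate block could not be fitted for siNT minus WT. Scores from both kinds of ends are 0 in every library at positions 1 and 2 and gave no difference there. Cap-proximal sites and U4-Cm8 have no score from 3' ends. The causes were not tested.

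Signs turned only at differences that did not pass the test, except U5-Am1 above. In GPATCH4 KO minus WT, centring libraries gave 0.00379 at U1-Am1, 0.0129 at U1-Um2, 0.0132 at U4-Gm2 and 0.000608 at U5-Um2. The index block gave -0.0365 at U1-Am70, 0.117 at U4-Gm2, 0.0431 at U5-Um41 and -0.0298 at U5-Cm45. Read 5' ends alone gave -0.0926 at U5-Cm45, and edgeR, on the log2 scale and with its sign turned, -0.0825 at U5-Am1. Without 1 library the range was -0.0807 to 0.0447 at U4-Gm2, -0.133 to 0.0929 at U4-Cm8, -0.00243 to 0.0139 at U5-Am1 and -0.00581 to 0.0812 at U5-Cm45.

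In siDHX15 minus siNT, centring gave 0.0679 at U1-Am1, 0.0546 at U1-Um2, 0.0180 at U4-Am1, 0.0122 at U4-Am65, 0.0480 at U5-Am1, 0.0505 at U5-Um2 and 0.0461 at U5-Gm37. The index block gave 0.00238 at U1-Am1, -0.0372 at U1-Am70, 0.0222 at U5-Um2 and 0.0166 at U5-Gm37. U1-Am70 was -0.0438 with read 5' ends, -0.0234 with 3' ends and -0.0374 with 2 neighbours a side. U5-Um41 was -0.0406 with 3' ends, and U5-Um2 was 0.59 with edgeR. Without 1 library the range was -0.0505 to 0.0393 at U1-Am1, -0.0476 to 0.0111 at U1-Um2, -0.107 to 0.0777 at U1-Am70, -0.130 to 0.238 at U4-Cm8 and -0.0616 to 0.0470 at U5-Am1. It was -0.0622 to 0.0284 at U5-Um2, -0.0569 to 0.000169 at U5-Gm37, -0.0196 to 0.114 at U5-Um41 and -0.0464 to 0.0629 at U5-Cm45. For the difference of effects edgeR gave -1.93 at U4-Am65, where siNT had 0 read ends.

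Log2 shares of U1 turned in GPATCH4 KO minus WT with TMM (0.0323) and the index block (0.0351), and ranged from -0.14 to 0.0263 without 1 library. In siNT minus WT U1 was 0.0824 with TMM, 0.00101 with limma and 0.000911 with read 5' ends, and ranged from -0.0307 to 0.0624 without 1 library. U4 ranged from -0.60 to 0.0454 in GPATCH4 KO minus WT and from -0.43 to 0.22 in siNT minus WT. U5A was -0.19 in GPATCH4 KO minus WT and -0.17 in siNT minus WT with the index block, and ranged from -0.22 to 0.44 in the second without 1 library. Its difference of effects was -0.21 with TMM and ranged from -0.14 to 0.52 without 1 library.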
